A study of Homo sapiens with 4 samples.

Results

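The miRNAs described here are those known as markers of epithelial and of mesenchymal cells, taken by name from the miR-seq table of U-251, an established human glioma cell line. Names of miR-200a, miR-200b, miR-200c, miR-141 and miR-429 formed the epithelial side, and names of miR-143, miR-145, miR-199a, miR-199b and miR-214 formed the mesenchymal side. The rule matched 10 of the 746 names in the table, 5 on each side, and 9 of the 10 were names of the 5p arm, the strand from the 5′ arm of the hairpin. The tenth, miR-429, has no arm in its name, and no 3p name of these miRNAs was in the table. This goes with the whole table, where 538 of the 746 names were 5p names and 18 were 3p names. The data comprised 4 biological replicates of wild type U-251 cells given the vehicle DMSO, which made up 1 group, so no condition could be compared with another. Levels were compared between miRNAs within a library, and all values describe 1 cell line without an epithelial or a fibroblast sample beside it.

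The miR-200 family is best known for holding cells in an epithelial state. Its members bind the mRNAs of ZEB1 and ZEB2, which are repressors of E-cadherin transcription, and ZEB proteins in turn repress the genes of the family. The pair miR-143 and miR-145 is abundant in smooth muscle and other stromal cells, where it acts on contractile differentiation. In development, miR-199a and miR-214 are transcribed together from DNM3OS, and with miR-199b they are typical of fibroblasts and other mesenchymal cells. For the miR-200 family, miR-143, miR-199a, miR-199b and miR-214, the 3p strand is commonly taken as the main product.

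These miRNAs are encoded by 11 hairpin genes in the GENCODE annotation of GRCh38. On chromosome 1, MIR200B lies from 1167104 to 1167198, MIR200A from 1167863 to 1167952 and MIR429 from 1169005 to 1169087, all on the plus strand and outside other annotated genes. On chromosome 12, MIR200C lies from 6963699 to 6963766 and MIR141 from 6964097 to 6964191 on the plus strand, in an intron of the long non-coding gene MIR200CHG, with 330 bases between them. On chromosome 5, MIR143 lies from 149428918 to 149429023 and MIR145 from 149430646 to 149430733, both on the plus strand. CARMN, a long non-coding RNA of smooth muscle, spans them, with MIR143 inside an exon of it and MIR145 inside an intron. MIR214 lies on chromosome 1 from 172138798 to 172138907 inside an exon of DNM3OS, and MIR199A2 lies from 172144535 to 172144644 on the same minus strand and overlaps an exon of it. Both are antisense to an intron of DNM3. The other miR-199 hairpins are also antisense to introns of dynamin genes, MIR199A1 on chromosome 19 from 10817426 to 10817496 within DNM2 and MIR199B on chromosome 9 from 128244721 to 128244830 within DNM1.

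RefSeq (GRCh38.p14) gave a mature sequence for 8 of the 10 names. The 2 without one were miR-199b-5p and miR-141-5p. Sequences are written 5′ to 3′ with the seed, bases 2 to 8, in capitals. The first set shows the strands whose names were counted on the epithelial side. The seed of miR-200b-5p and miR-200a-5p was the same, and that of miR-200c-5p differed from it by the substitution A2G, counted from 1 at the 5′ end of miR-200a-5p. Only miR-429 carried the AAUACUG seed for which the family is known.
miR-200b-5p: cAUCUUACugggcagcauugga
miR-200a-5p: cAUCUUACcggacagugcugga
miR-200c-5p: cGUCUUACccagcaguguuugg
miR-429: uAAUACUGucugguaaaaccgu

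The second set shows the 3p strands of the same hairpins, which have no name of their own in the table. They fell into 2 seed groups, with miR-200b-3p and miR-200c-3p sharing the seed of miR-429, and miR-200a-3p sharing a seed with miR-141-3p. Between miR-200a-3p and miR-200b-3p, the seeds differed by the substitution C4U, counted from the 5′ end of miR-200a-3p.
miR-200b-3p: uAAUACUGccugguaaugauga
miR-200c-3p: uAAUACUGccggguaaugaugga
miR-200a-3p: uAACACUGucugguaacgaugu
miR-141-3p: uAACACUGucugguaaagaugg

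The third set shows the mesenchymal strands on which the results turn. The 3p strands of miR-199a and miR-199b were identical over all 22 bases. Both have a seed other than that of miR-199a-5p.
miR-199a-5p: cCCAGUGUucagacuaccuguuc
miR-199a-3p: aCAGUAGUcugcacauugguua
miR-199b-3p: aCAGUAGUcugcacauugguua
miR-214-5p: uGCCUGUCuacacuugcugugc
miR-143-5p: gGUGCAGUgcugcaucucuggu
miR-145-5p: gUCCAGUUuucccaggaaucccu

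Total counts lay between 12363104 and 13214969 per library. Values are given as counts, or as CPM, which is counts per 1000000 counts of the library. Mature miRNAs have nearly the same length, so counts of different names were set side by side without a length correction. Ratios between names are ratios of counts. How evenly the library preparation captured different sequences was not tested, and agreement between libraries cannot show it. The deposited table marks a name without a value in a library by a blank cell, and it holds no 0. Of the 286 names that reached 50 counts in some library, 13.6% were blank in another, so a blank was not read here as a low level. Blanks added nothing to sums, and ratios or mean log2 levels over names with blanks took them as 0 counts. The smallest library gives 0.243 CPM for 3 counts, taken as the highest expected count that an observed count of 0 would allow.

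None of the 10 names was blank throughout, and 6 of them, 3 on each side, had a value in every library. The same 6 had at least 10 counts in every library. In the whole table, 41.4% of names had a value in every library and 37.5% had at least 10 counts in every library. Of 40 cells of the members, 7 were blank. On the epithelial side the blanks fell on miR-200b-5p and miR-429, and on the mesenchymal side on miR-143-5p and miR-145-5p.

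**Figure D1:**
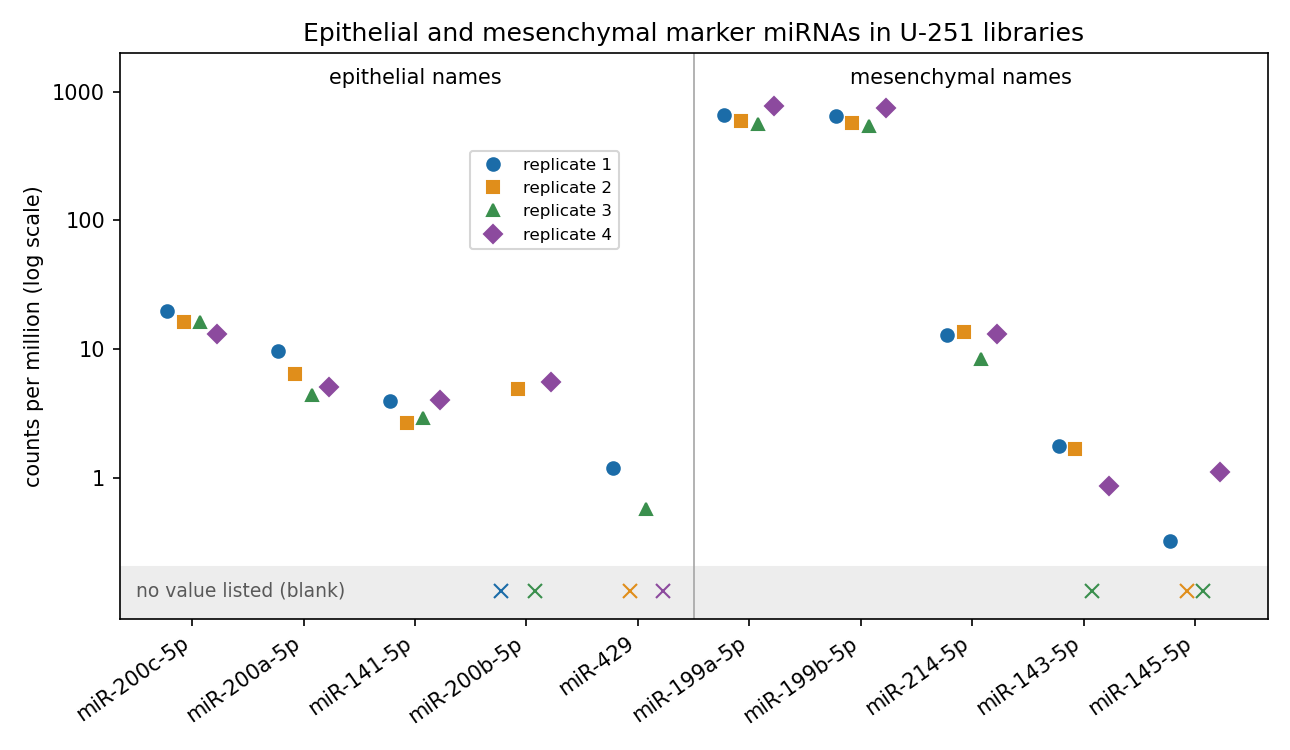
CPM (log axis) of the 10 names in each of the 4 libraries, with epithelial names on the left and mesenchymal names on the right. Symbols mark the replicates and crosses in the grey band mark libraries without a value. The 2 miR-199 names lie between 541.9 and 768.3 CPM in every library, and no other name exceeds 19.8 CPM.

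Among the mesenchymal names, miR-199a-5p and miR-199b-5p stood far above the rest. The count of miR-199a-5p was 8298.5, 7789, 6884 and 9795.5 in replicates 1 to 4, which gave 644.0 ± 93.7 CPM (SD, n = 4). That of miR-199b-5p was, in the same order, 8052, 7548, 6699 and 9441, or 623.9 ± 88.4 CPM (SD, n = 4). Both names were highest in replicate 4 and lowest in replicate 3, and between these libraries miR-199a-5p differed 1.38-fold. They ranked 72 and 73 among the 621 names with a value. For scale, Let-7a-5p, the most abundant name, held 22.9% ± 1.96 of the counts, against 0.0644% ± 0.00937 for miR-199a-5p (SD, n = 4).

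The counts of the 2 miR-199 names were nearly equal in every library. The count of miR-199b-5p divided by that of miR-199a-5p came to 0.970, 0.969, 0.973 and 0.964 in replicates 1 to 4. The coefficient of variation of this ratio was 0.402%, against 14.5% for the level of miR-199a-5p itself. The order of the pair was the same in 4 of 4 libraries, and the log2 ratio of miR-199a-5p to miR-199b-5p averaged 0.05 ± 0.01 (SD; p = 0.125 by a two-sided exact sign-flip permutation test, the smallest value that 4 libraries allow).

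Such agreement was rare in the table. Among the 280 names with at least 10 counts in every library there were 39060 pairs, and 5 pairs, or 0.0128%, stayed within 5% of each other in all 4 libraries, a limit chosen after the values were seen. All 5 were pairs of 5p names whose hairpins carry an identical 3p strand in RefSeq. Besides the miR-199 pair they were miR-103a-1-5p with miR-103a-2-5p, miR-19b-1-5p with miR-19b-2-5p, miR-101-5p with miR-101-2-5p, and miR-365a-5p with miR-365b-5p. In all, 8 pairs of 5p names shared a 3p strand and had at least 10 counts in every library. The 3 pairs outside the limit of 5% were those of miR-376a, miR-92a and miR-29b, and for miR-29b-2-5p and miR-29b-1-5p the ratio ranged from 0.779 to 0.832. The longest run of bases shared by the hairpins MIR199B and MIR199A1 was 28 bases, and that shared by MIR199B and MIR199A2 was 27 bases. Both runs contain the whole 3p strand. Whether reads of the 3p strand entered the counts of the 5p names was not tested.

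**Figure D2:**
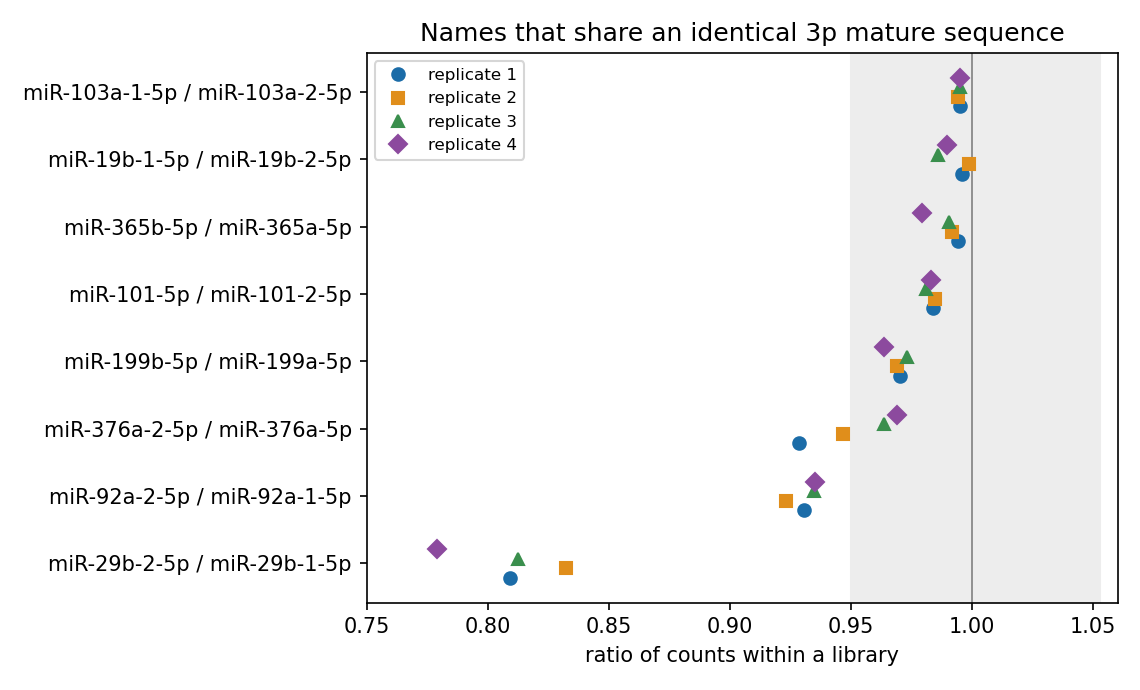
Ratio of the counts of 2 names within a library, for the 8 pairs of 5p names whose hairpins share an identical 3p strand. Symbols mark the 4 replicates, and the grey band holds ratios within 5% of equality in either order. The pair miR-199b-5p and miR-199a-5p lies between 0.964 and 0.973, and 5 of the 8 pairs lie inside the band in every library.

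The values of miR-199a-5p were not whole in replicates 1 and 4, where they ended in 0.5. It has 2 hairpin genes, and its values became whole when multiplied by 2. Of 37 names with values that were not whole and a hairpin in RefSeq, 22 had at least 2 hairpins, and for 19 of these the values came within 0.01 of a whole number in every library when multiplied by the number of hairpins. The other 15 had 1 hairpin. In all, 45 names with a value had at least 2 hairpins, so many of these held only whole values. The step behind values that are not whole was not tested.

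The third mesenchymal name with a value in every library was miR-214-5p, whose hairpin lies 5627 bases from MIR199A2. It had 162, 179, 104 and 168 counts in replicates 1 to 4, or 12.01 ± 2.41 CPM (SD, n = 4). Replicates 1, 2 and 4 were close to each other and replicate 3 was the lowest. The 95% exact binomial interval of replicate 3, from 6.87 to 10.2 CPM, did not reach those of the other libraries. Such intervals cover counting error only. Within a library, miR-199a-5p exceeded miR-214-5p by 43.4-fold to 65.9-fold, or 5.75 ± 0.26 on the log2 scale (mean ± SD, higher in 4 of 4 libraries, p = 0.125 by the same exact permutation test). The counts of miR-199a-5p do not tell its 2 hairpins apart, and 1 of them is not beside MIR214.

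Little was listed for miR-143-5p and miR-145-5p. Replicates 1, 2 and 4 held 22, 22 and 11 counts of miR-143-5p, and replicate 3 was blank. Replicates 1 and 4 held 4 and 14 counts of miR-145-5p, and the other libraries were blank. In replicate 1 miR-143-5p was the higher of the pair, whereas in replicate 4 its 0.863 CPM (95% exact binomial interval 0.431 to 1.54) and the 1.10 CPM of miR-145-5p (95% exact binomial interval 0.600 to 1.84) could not be told apart at this depth. Their hairpins lie 1622 bases apart. With 2 libraries in which both had a value, their ratio was not tested.

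On the epithelial side, miR-200c-5p was the most abundant name. Its level was 19.8, 16.3, 16.3 and 13.1 CPM in replicates 1 to 4, or 16.3 ± 2.73 CPM on average (SD, n = 4). Replicate 1 was the highest and replicate 4 the lowest, in contrast to the miR-199 names, which were highest in replicate 4. Its neighbour miR-141-5p had 49, 35, 36 and 51 counts in replicates 1 to 4, or 3.37 ± 0.687 CPM (SD, n = 4). Replicates 1 and 4 were above replicates 2 and 3, but the 95% exact binomial intervals of miR-141-5p overlapped between all libraries. Within a library miR-200c-5p exceeded miR-141-5p by 3.25-fold in replicate 4 and by 5.02-fold to 6.07-fold in the others. On the log2 scale the ratio was 2.27 ± 0.40 (mean ± SD, higher in 4 of 4 libraries, p = 0.125 by the same exact permutation test).

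From the hairpins on chromosome 1, only miR-200a-5p had a value in every library. It was listed with 120, 84, 54 and 64 counts in replicates 1 to 4, or 6.33 ± 2.31 CPM (SD, n = 4). With a 2.19-fold range and a coefficient of variation of 36.5%, it varied more than any other member with a value in every library. For miR-200b-5p, replicate 2 held 65 counts and replicate 4 held 71, and of the 7 members that reached 50 counts in some library it was the 1 with blanks. Where it had a value it was near miR-200a-5p, with 4.92 against 6.36 CPM in replicate 2 and 5.57 against 5.02 CPM in replicate 4. For miR-429 the only values were 15 counts in replicate 1 and 7 in replicate 3. No library therefore had a value for both miR-200b-5p and miR-429, which are encoded in the same cluster. The 3 names of the chromosome 1 hairpins summed to 135, 149, 61 and 135 counts in replicates 1 to 4. The 2 names of the chromosome 12 hairpins summed to 297, 250, 237 and 218 counts, which was 1.61-fold to 3.86-fold more within a library. In replicates 1 and 3, where miR-200b-5p was blank and added nothing to the sum, these ratios were 2.20 and 3.86, and in replicates 2 and 4, where it had a value, they were 1.68 and 1.61. The upper end of the range thus rests on libraries with that blank.

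Summed over the 5 names of a side, the mesenchymal level was 1281 ± 184.2 CPM and the epithelial level 29.1 ± 4.35 CPM (SD, n = 4). The summed mesenchymal count was higher by 38.2-fold, 38.9-fold, 45.9-fold and 55.0-fold in replicates 1 to 4. The sides did not overlap, but the mesenchymal sum was almost wholly the miR-199 pair, which held 98.7% to 99.2% of it in each library. Without these 2 names, a setting chosen after the values were seen, the order of the sides turned around. The remaining 3 mesenchymal names summed to 188, 201, 104 and 193 counts in replicates 1 to 4, where the epithelial names summed to 432, 399, 298 and 353. On the log2 scale the ratio of mesenchymal to epithelial sums went from 5.46 ± 0.24 to -1.14 ± 0.28 (mean ± SD). With the 2 miR-199 names counted once, as their mean, it was 4.47.

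**Figure D3:**
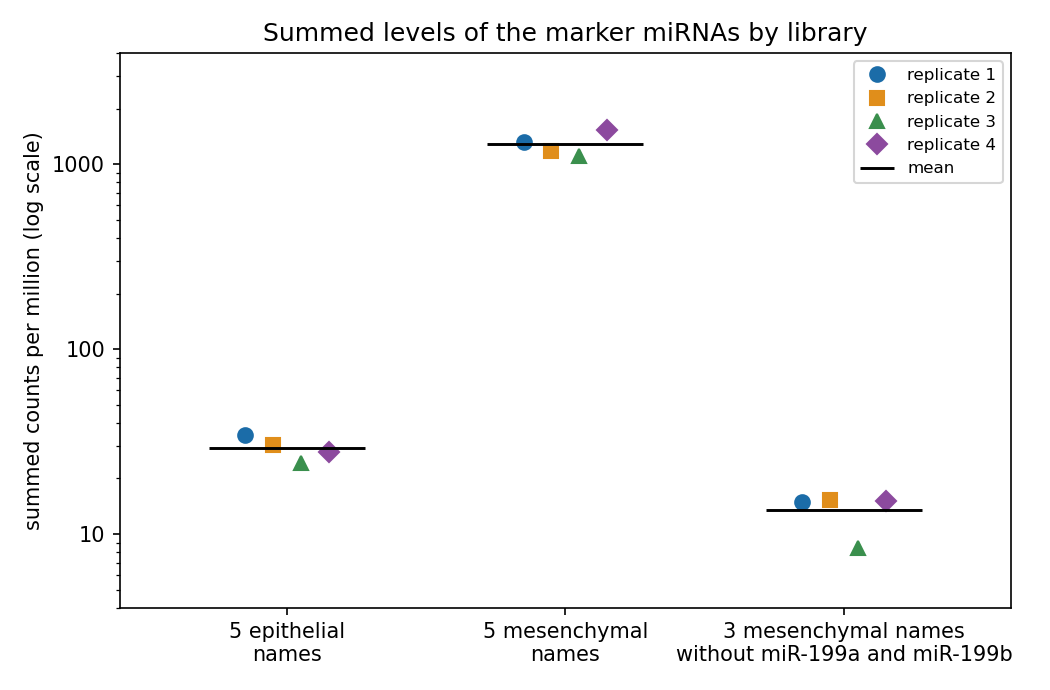
Summed CPM (log axis) of the 5 epithelial names, of the 5 mesenchymal names and of the 3 mesenchymal names that remain without miR-199a and miR-199b. Symbols mark the 4 replicates and lines their means. The mesenchymal sum is at least 1107 CPM in every library, and without the miR-199 pair it lies below the epithelial sum in every library.

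The epithelial sum was spread over more names. Of its 1482 counts over the 4 libraries, miR-200c-5p held 56.1%, miR-200a-5p 21.7%, miR-141-5p 11.5%, miR-200b-5p 9.18% and miR-429 1.48%. Blanks added nothing to these shares, and miR-200b-5p was blank in replicates 1 and 3. Where miR-200b-5p had a value, it held up to 20.1% of the epithelial count. Its 65 and 71 counts in replicates 2 and 4 exceeded the 35 and 51 of miR-141-5p. The share of miR-200c-5p was lowest in replicate 4, with 47.3%, and highest in replicate 3, with 67.4%. Of these libraries, replicate 3 was blank for miR-200b-5p and replicate 4 was not.

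Ranked by summed count, the 10 names formed 9 neighbouring pairs, and 4 of these had the same order in 4 of 4 libraries. These were miR-199a-5p above miR-199b-5p, miR-199b-5p above miR-200c-5p, miR-214-5p above miR-200a-5p and miR-200a-5p above miR-141-5p (p = 0.125 each by the exact permutation test, or 0.28 adjusted over the 9 pairs by Benjamini-Hochberg). The pairs were formed from the same counts that were then tested, so these p-values give no independent support for the order. The step from miR-199b-5p to miR-200c-5p, of 38.2-fold on average, was the largest between members with a value in every library. The next pair, miR-200c-5p above miR-214-5p, held in 3 of 4 libraries, with log2 ratios that averaged 0.45 ± 0.42 (SD; p = 0.25 by the exact permutation test), and in replicate 4 the counts were 167 and 168. This mean and SD are close in size, and the order of the pair was not the same in every library. The 4 pairs below miR-141-5p contain names with blanks, and their order was not read. Their p-values, with blanks taken as no counts, were part of the adjustment over the 9 pairs.

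Across libraries, the deviations of the members did not fall into 2 blocks by side. The deviation of log2 CPM from its mean over the libraries was positive in replicate 1 for all 6 members with a value in every library, from 0.05 for miR-199a-5p and miR-199b-5p to 0.66 for miR-200a-5p. In replicate 4 it was 0.27 for miR-199a-5p, 0.26 for miR-199b-5p, 0.16 for miR-214-5p and 0.27 for miR-141-5p, but -0.30 for miR-200c-5p and -0.27 for miR-200a-5p. In replicate 4 the epithelial name miR-141-5p was thus on the same side of its mean as the mesenchymal names. Its counts were low, however, and its 95% exact binomial intervals overlapped between all libraries. They ran from 1.84 to 3.68 CPM in replicate 2 and from 2.98 to 5.26 CPM in replicate 4. In replicate 3 all members but miR-200c-5p, at 0.01, were below their mean, with miR-214-5p at -0.49 and miR-200a-5p at -0.47. The median SD of log2 CPM was 0.27 over the 6 members and 0.29 over the 280 names with at least 10 counts in every library. By Dixon's ratio, the gap of an extreme library divided by the range, 1 of the 6 members, miR-214-5p, had a library past the 95% critical value, where 11.1% of the 280 names had one. With TMM, upper-quartile or DESeq2 scaling factors in place of the totals, miR-214-5p was no longer past it, at 0.810, 0.734 and 0.797.

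**Figure D4:**
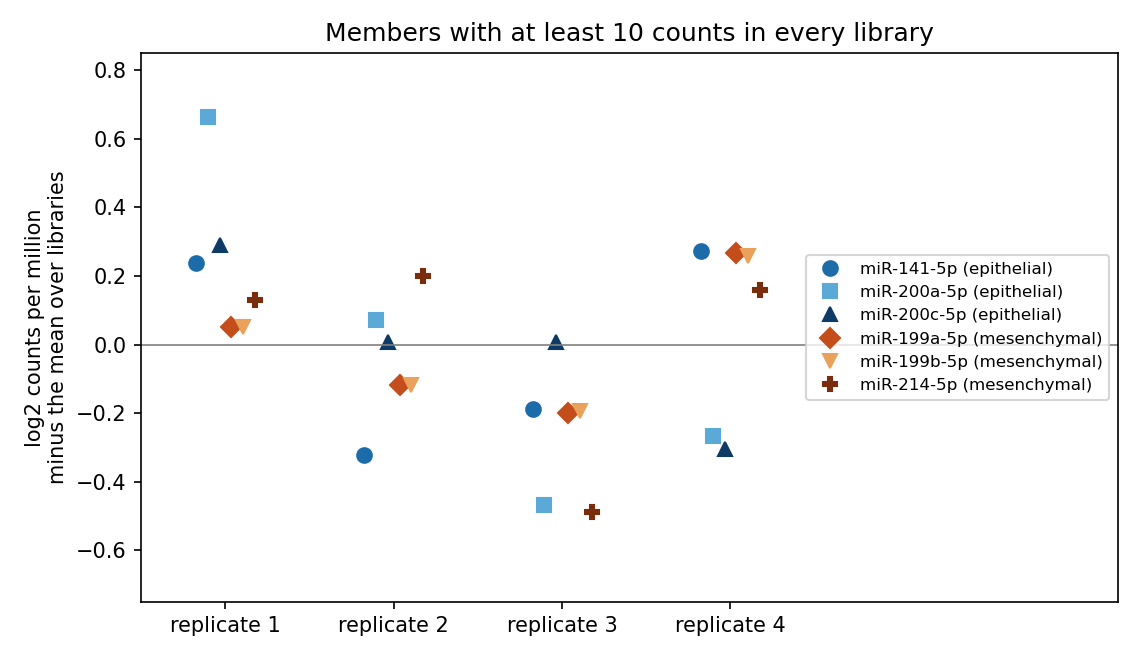
Log2 CPM minus the mean over the 4 libraries, for the 6 members with at least 10 counts in every library, by replicate. Blue symbols are epithelial and brown or orange symbols mesenchymal names. In replicate 4 miR-141-5p, at 0.27, lies with the mesenchymal names and miR-200c-5p and miR-200a-5p lie at -0.30 and -0.27. The 95% exact binomial intervals of miR-141-5p overlap between all libraries.

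The names with the most similar profile were found by the Euclidean distance of log2(CPM + 0.5) over the 4 libraries among 279 other names. Nearest to miR-199a-5p was miR-199b-5p, at 0.0911, followed by miR-152-5p at 0.509 and miR-27a-5p at 0.630. Nearest to miR-200c-5p were miR-550a-3-5p at 0.284, miR-194-5p at 0.371 and miR-376b-5p at 0.449. With 4 libraries the distance mostly reflects the level. Of the names nearest to miR-200c-5p, only miR-194-5p, known from intestinal and liver epithelium, is on the list of further epithelial miRNAs below. It was not the nearest, and miR-550a-3-5p and miR-376b-5p are not on that list.

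Other miRNAs with a known link to epithelial or mesenchymal cells were read from lists. A miRNA was counted when any of its names passed, and 37.5% of all names had at least 10 counts in every library. Here and in the lists below, most names found were 5p names. A blank, low or missing name was therefore not read as absence of the miRNA. Of 7 further miRNAs enriched in epithelia (miR-203a, miR-203b, miR-205, miR-375, miR-192, miR-194 and miR-215), 5 had a name in the table, 4 had a value and 2 had at least 10 counts in every library. The latter were miR-192-5p, with 38.6 ± 14.2 CPM, and miR-194-5p, with 18.6 ± 2.98 CPM (SD, n = 4), which was of the order of miR-200c-5p. For miR-205-5p, a miRNA of stratified epithelia, 9, 33, 11 and 66 counts were listed in replicates 1 to 4, and miR-203a-5p was blank in every library.

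All 6 miRNAs listed for their part in epithelial-mesenchymal transition had at least 10 counts in every library, against 37.5% of all names. The level of miR-21-5p was 30654 ± 16587 CPM, that of miR-9-5p, which targets E-cadherin mRNA, 13899 ± 4366 CPM and that of miR-155-5p 3237 ± 225.2 CPM (SD, n = 4). Those of miR-22-5p, miR-10b-5p and miR-34a-5p were 535.7 ± 77.0, 434.5 ± 195.2 and 230.4 ± 55.7 CPM (SD, n = 4). The miR-199 names therefore lay near miR-22-5p and below the first 3. In this list miR-34a, which p53 induces, is known to oppose the transition.

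Markers of other cells were read in the same libraries, where 37.5% of all names had at least 10 counts in every library. Of 4 muscle miRNAs, 2 had a name and a value and none had at least 10 counts in every library, with a summed level of 0.485 to 3.91 CPM. For miR-133a-5p, which is made in muscle, 17, 25, 6 and 11 counts were listed in replicates 1 to 4. Of 6 blood miRNAs, 4 had a value and 2, miR-486-5p and miR-150-5p, had at least 10 counts in every library. The blood list summed to 122.1 to 217.8 CPM, nearly all of it miR-486-5p, and miR-451a, known from erythroid cells, was blank throughout. Of 6 neural and glial miRNAs, 5 had a value and 4 had at least 10 counts in every library. The list summed to 48995 to 60582 CPM, mostly miR-125b-5p and miR-9-5p, and miR-9-5p is also on the list for the transition. The mean level was 2023 CPM for miR-128-1-5p but 2.79 CPM for miR-219a-5p. For miR-338-5p, 4 and 7 counts were listed in replicates 1 and 4, and the other libraries were blank. For the neuronal miR-124, the name miR-124-5p was blank in every library, and no 3p name of it was in the table. The part of other cells in the levels of the miR-199 names was not tested.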

How the data were processed

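miR-seq of 4 libraries of U-251 cells was analysed. Per the study's methods and the labels, a miRNA kit was sequenced single-end, although the labels also describe mRNA capture. Adaptors were trimmed with Trimmomatic, long reads were discarded, and the rest were mapped to hg38 with Bowtie and counted with miRDeep2. The deposited values are unnormalized and were handled as estimated counts, since 40 names hold values that are not whole (farther than 1e-06 from a whole number). The miRNA annotation release is not given in the sources used here. The authors' upper-quartile normalization is not in the deposited counts.

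CPM, log2 ratios of counts with a pseudocount of 0.5, and exact sign-flip tests were run under Python 3.11.15 (with numpy 2.4.6, scipy 1.17.1 and pandas 2.3.3). Plots were drawn with matplotlib 3.10.9. TMM and upper-quartile factors came from edgeR 4.0.16 and size factors from DESeq2 1.42.0 (R 4.3.3), on counts rounded to whole numbers, over names whose lowest count was at least 10. No test across names was run with either. Only Dixon's ratio and the sign-flip test with its mean log2 ratio were tried on simulated data. Members and lists were chosen with earlier results of these data known. The text names all members, the 3 nearest names to the top member of each side, Let-7a-5p as a yardstick and the lists given in the report. The miRNAs that share a 3p strand were picked later, with their values in view. Whether the replicates were separate cultures is not stated beyond the word biological, so the spread between these libraries may be partly technical. The p-value of the exact sign-flip test is 0.125 whenever all 4 log2 ratios have the same sign, whatever their spread.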

Additional observations from a re-analysis of the deposited data

Results flagged for a closer look

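Of 33 levels and ratios with 4 values, 6 had a library far from the other 3, past the 95% critical value of Dixon's ratio, the gap of the extreme library divided by the whole range. Chance gives about 1 in 20, and in these libraries 11.1% of the 280 names with at least 10 counts in every library were past the same value. The 33 overlap, since sums and ratios contain members that were also read alone. For miR-214-5p the ratio was 0.877, with replicate 3 the lowest at 8.41 CPM and the others at 12.9 to 13.5 CPM. It was 0.967 for the 3 mesenchymal names without the miR-199 pair and 0.892 for the 3 names of the chromosome 1 hairpins, again with replicate 3 the lowest. In replicate 3 the first of these sums was miR-214-5p alone, with 104 counts, so it largely repeats the value of miR-214-5p. Both sums contain names that were blank in replicate 3, namely miR-143-5p, miR-145-5p and miR-200b-5p, and the part of the blanks was not tested. Among the miRNAs read for comparison, the ratio was 0.857 for miR-192-5p and 0.911 for miR-21-5p, both highest in replicate 1, and 0.905 for miR-150-5p, highest in replicate 4.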

How the results depend on the processing

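Of 56 values computed under other settings, 48 moved by less than the SD or, for counts, by less than 1.5 times, 7 moved by more and 1 changed sign. For summed levels and log2 ratios, the mean over any 3 replicates always lies within the SD of the mean over all 4. Settings that omitted a replicate therefore had to fall among the 48 for these results, so the 48 partly reflect the rule and not the data. The mean log2 ratio of mesenchymal to epithelial sums was 5.46. As the difference of mean log2(CPM + 0.5) over names, with blanks taken as 0 CPM, it was 2.61. It was -1.14 without miR-199a and miR-199b and 4.47 with the pair counted once, both settings chosen after seeing the data, and the latter took the summed mesenchymal level from 1281 to 647.4 CPM by construction. Without the largest member of each side it was 5.67, and without one replicate 5.35 to 5.53. With detection set at 1 count in any library, 10 members rather than 6 passed, and with 10 CPM required of all libraries 3 passed, as the thresholds fix. The number of members with a library standing apart, 1, was 0 with upper-quartile factors and 0 with TMM factors, where the Dixon ratio of miR-214-5p was 0.734 and 0.810. With DESeq2 factors it was 0.797, also below the critical value. The cause was not tested. No paired analysis was possible because there was only 1 group. Ratios of cluster partners with blanks gave no value under any setting. With 4 libraries the exact sign-flip test cannot go below 0.125, and at 22 counts or fewer, as for miR-143-5p, miR-429 and miR-145-5p, counting error limits every statement.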
